A study of Mus musculus with 64 samples.

Results

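The 10 genes Spo11, Dmc1, Prdm9, Mei1, Hormad1, Hormad2, Msh4, Msh5, Hfm1 and Mlh3 carry out meiotic recombination, and were taken by symbol from the 26385 genes of the RNA-Seq tables. Their levels were followed in 47 libraries of the mouse male germline, each made from 1 animal: 20 of sorted germ cells and 27 of whole testis. Morc1tg is an allele on the FVB/N background in which a tyrosinase transgene insertion removed exons 2 to 4 of Morc1, a gene for a nuclear ATPase of the germline. Sorted germ cells were of Morc1tg/+ and Morc1tg/tg males at E16.5 (n = 2 and 2), E18.5 (n = 2 and 2), P2.5 (n = 3 and 2) and P10.5 (n = 4 and 3). Up to P2.5 the cells carried an Oct4-IRES-Gfp reporter on a mixed background and were sorted for green fluorescence, and at P10.5 they were sorted for high EPCAM, low side scatter and no major histocompatibility complex class I. Whole testis of the Morc1 line was of Morc1tg/tg (n = 3), Morc1tg/+ (n = 2) and Morc1+/+ (n = 1) at P10.5 and of Morc1tg/tg and Morc1tg/+ at P14.5 (n = 3 each), with 1 preliminary library each of Morc1tg/+ and Morc1+/+ at P10.5. Whole testis at P10.5 was also taken from Dnmt3l-/-, Dnmt3l+/- and Dnmt3l+/+ (n = 3 each), and from Miwi2-/- and Miwi2+/- mice (n = 2 each). DNMT3L is the cofactor of de novo DNA methylation in the germline, and MIWI2 (gene Piwil4) is its nuclear PIWI protein. The germ cells of a whole testis are mixed with the somatic cells, so that in these bulk samples fewer cells of a type and less RNA per cell cannot be told apart.

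Meiotic recombination starts with double-strand breaks that SPO11 makes in DNA, at sites that PRDM9 marks by methylating histone H3, and MEI1 is needed for the breaks. HORMAD1 and HORMAD2 sit on the chromosome axis, where HORMAD1 promotes breaks and both watch over unpaired regions, and DMC1 forms the filament on broken DNA that searches the homologue. MSH4 and MSH5 then hold the joined molecules as a pair, the helicase HFM1 acts on them with these, and MLH3 is a subunit of the nuclease that resolves them as crossovers. In male mice meiosis begins after birth, and in the juvenile testis the first wave of germ cells advances roughly in step, so that older testes hold more advanced spermatocytes.

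Promoters of members are shown because 9 of the genes moved together in whole testis, whereas Mlh3 moved with them less closely and over a smaller range. RefSeq promoters of GRCm38.p6, from 250 bases before to 50 bases after the start of the gene, were given for 9 of the 10 genes, Spo11 being without an entry. The 4 printed below belong to Dmc1 (chr15:79605060-79605359, minus strand), Hormad1 (chr3:95559427-95559726, plus strand), Msh4 (chr3:153904842-153905141, minus strand) and Mlh3 (chr12:85270550-85270849, minus strand). They run 5′ to 3′ on the strand of the gene, and capitals mark TCCCGC, the core of E2F family sites, and CACGTG, the E-box, each on either strand.
Dmc1: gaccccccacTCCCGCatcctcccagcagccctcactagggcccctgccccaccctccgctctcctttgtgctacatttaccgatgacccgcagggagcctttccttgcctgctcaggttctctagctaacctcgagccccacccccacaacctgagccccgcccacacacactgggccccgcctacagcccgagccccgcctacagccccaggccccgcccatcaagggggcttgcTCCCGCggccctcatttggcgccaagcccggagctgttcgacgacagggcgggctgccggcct
Hormad1: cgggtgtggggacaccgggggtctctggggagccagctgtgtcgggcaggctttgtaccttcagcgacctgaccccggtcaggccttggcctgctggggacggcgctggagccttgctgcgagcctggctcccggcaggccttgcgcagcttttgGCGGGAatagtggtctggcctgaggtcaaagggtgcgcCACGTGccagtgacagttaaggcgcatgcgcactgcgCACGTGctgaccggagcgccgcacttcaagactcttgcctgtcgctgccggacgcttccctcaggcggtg
Msh4: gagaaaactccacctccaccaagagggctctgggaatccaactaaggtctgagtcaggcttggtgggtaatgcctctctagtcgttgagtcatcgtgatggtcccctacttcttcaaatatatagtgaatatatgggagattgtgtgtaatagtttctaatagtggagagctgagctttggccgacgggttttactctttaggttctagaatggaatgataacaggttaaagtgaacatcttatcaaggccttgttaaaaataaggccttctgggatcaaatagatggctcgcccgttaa
Mlh3: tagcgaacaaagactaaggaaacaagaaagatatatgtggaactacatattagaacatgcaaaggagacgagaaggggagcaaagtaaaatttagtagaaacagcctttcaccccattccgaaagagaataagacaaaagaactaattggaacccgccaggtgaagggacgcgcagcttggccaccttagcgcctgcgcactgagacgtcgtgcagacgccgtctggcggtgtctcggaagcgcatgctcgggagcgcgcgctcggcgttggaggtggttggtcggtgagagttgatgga
TCCCGC was found in 7 of the 12 promoters of members (58.3%), which came from Dmc1, Prdm9, Hormad1, Msh5 and Hfm1, and in 19.98% of all 32851 promoters. In Dmc1 it lay 240 and 13 bases before the start, and in Hormad1 95 bases before it. CACGTG was found in 2 of the 12 (16.7%), both of Hormad1, where it lay at 57 and 20 bases before the start of the one printed, and in 7.15% of all promoters. AACNG, the core of MYB family sites, was in all 12 promoters of members and in 80.29% of all promoters. The promoters of Mei1, Hormad2, Msh4 and Mlh3 held neither TCCCGC nor CACGTG in these windows. CG dinucleotides numbered 41 in the Hfm1 promoter and 6 in that of Msh4, against a median of 7 over all promoters. Every promoter of a member other than that of Msh4 lay above this median, the lowest being that of Mei1 with 8. The pairs of promoters of Prdm9, Hormad1 and Mlh3 each belong to 1 gene and those of Hormad1 and of Mlh3 overlap. TCCCGC itself contains a CG, so its share moves with base composition.

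Sorted libraries held 2413679 to 14918478 reads on genes, and whole testis libraries 22509570 to 42137954, which were made with a different kit. Levels are given as RPKM, reads per kilobase of exons scaled to the mapped reads of the library, which may be compared between genes. Fold changes are edgeR estimates on counts with their standard errors, and a gene was called where its Benjamini-Hochberg adjusted p over all genes tested was under 0.05. All 10 genes passed the filter on low counts in each of the 18 comparisons. In Dnmt3l-/- testes, Dnmt3l had 0.037 to 0.046 RPKM against 0.374 to 1.02 RPKM in the 6 controls of that line. Morc1 was below its control mean in each Morc1tg/tg group, and the fall was called everywhere except in E18.5 germ cells (log2 fold change -2.32, adjusted p = 0.14, edgeR). Piwil4 was higher in the libraries labelled Miwi2-/- (10.7 and 11.5 RPKM) than in those labelled Miwi2+/- (6.65 and 7.01 RPKM). Reads outside a deleted part can remain, so these levels do not settle the genotype.

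In Morc1tg/+ germ cells, which served as controls, the genes did not share 1 course from E16.5 to P10.5. Hormad1, on the chromosome axis (ENSMUSG00000028109, chromosome 3 of mm9, 95363599 to 95391593), had the highest mean of the members at each stage, with 47.8 and 59.8 RPKM at E16.5 and 18.6 to 24.8 RPKM at P10.5. Prdm9, the histone methyltransferase that sets the sites of breaks (ENSMUSG00000051977, chromosome 17, 15680043 to 15701318), had 3.19 and 1.85 RPKM at E16.5, 6.98 and 8.07 RPKM at E18.5, 1.35, 0.739 and 2.18 RPKM at P2.5, and 10.2, 9.12, 8.75 and 8.70 RPKM at P10.5. Its level was high at E18.5 and P10.5 and low at P2.5, where it overlapped that of E16.5. Prdm9 fell by 2.62 on the log2 scale from E18.5 to P2.5 (standard error 0.494, adjusted p = 0.00366) and rose by 2.94 from P2.5 to P10.5 (standard error 0.263, adjusted p = 1.33e-06).

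From E16.5 to E18.5 no member was called by edgeR, where 7.74% of all genes were. An unadjusted p under 0.05 was found for 5 members, beside 4124 of all 15768 genes tested. DESeq2 called 2 members, Prdm9 higher (log2 fold change 1.58) and Hfm1 lower (-0.83). The count was 7 without Morc1tg/+ replicate 1 of E18.5 and 6 without replicate 2, the lone library left being assumed to vary like the others. Replicate 1 of E18.5 had 13 reads on Spo11, a level of 0.541 RPKM, against 2.65 RPKM in replicate 2. From E18.5 to P2.5, 3 of the 10 genes were called, where 24.5% of all genes were. Besides Prdm9, Mei1 rose by 2.12 (standard error 0.405, adjusted p = 0.0039) and Dmc1 by 1.46 (standard error 0.40, adjusted p = 0.023). Mei1 (ENSMUSG00000068117, chromosome 15, 81900426 to 81957244) had 2.42 and 1.01 RPKM at E18.5 and 6.94, 8.69 and 9.20 RPKM at P2.5. Its rise was 2.73 without replicate 1 of E18.5. Dmc1 (ENSMUSG00000022429, chromosome 15, 79391930 to 79435529) had 4.21 and 2.97 RPKM at E18.5 and 10.2, 9.15 and 14.4 RPKM at P2.5. Its call was lost without replicate 2 of E18.5 (adjusted p = 0.0612), or without replicate 2 (0.0575) or 3 (0.116) of P2.5. Of the 37 other recombination genes, 34 were tested in this step, and 12 were higher and 1 lower. Among them, Trip13, an ATPase that removes HORMAD proteins from the axis, rose by 2.17, and Tex11, an X-linked crossover factor, by 2.08.

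From P2.5 to P10.5, 5 members were called, 2 higher and 3 lower, where 39.3% of all genes were. The sort and the background differ between these stages and cannot be told apart from age. Dmc1 rose by 0.91 (standard error 0.154, adjusted p = 0.00033) to 15.9 to 19.12 RPKM. Hormad1 fell by 0.78 (standard error 0.16, adjusted p = 0.00142), and Hfm1 by 1.01 (standard error 0.256, adjusted p = 0.00612). Hfm1 (ENSMUSG00000043410, chromosome 5, 107269211 to 107355340) had 8.02 and 8.63 RPKM at E16.5, 5.13 and 4.19 RPKM at E18.5, 4.88 to 5.34 RPKM at P2.5 and 1.11 to 3.01 RPKM at P10.5, so it was lowest at the last stage. Spo11 (ENSMUSG00000005883, chromosome 2, 172803201 to 172819077) fell by 1.05 (standard error 0.367, adjusted p = 0.035), from 1.66, 2.91 and 2.24 RPKM to 0.514 to 1.21 RPKM. The call for Spo11 rested on few reads (27 to 107 a library) and was lost without Morc1tg/+ replicate 1, 2 or 4 of P10.5 or replicate 2 of P2.5, with adjusted p between 0.0518 and 0.149. Markers of Sertoli cells, the somatic nurse cells, summed to 36.8 to 41.2 RPKM at P2.5, to 107.8 to 177.0 RPKM at P10.5, and to 4440 to 4619 RPKM in control testis of the line at P10.5. Their part in the change was not tested. Successive steps share the libraries of the stage between them.

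**Figure D1:**
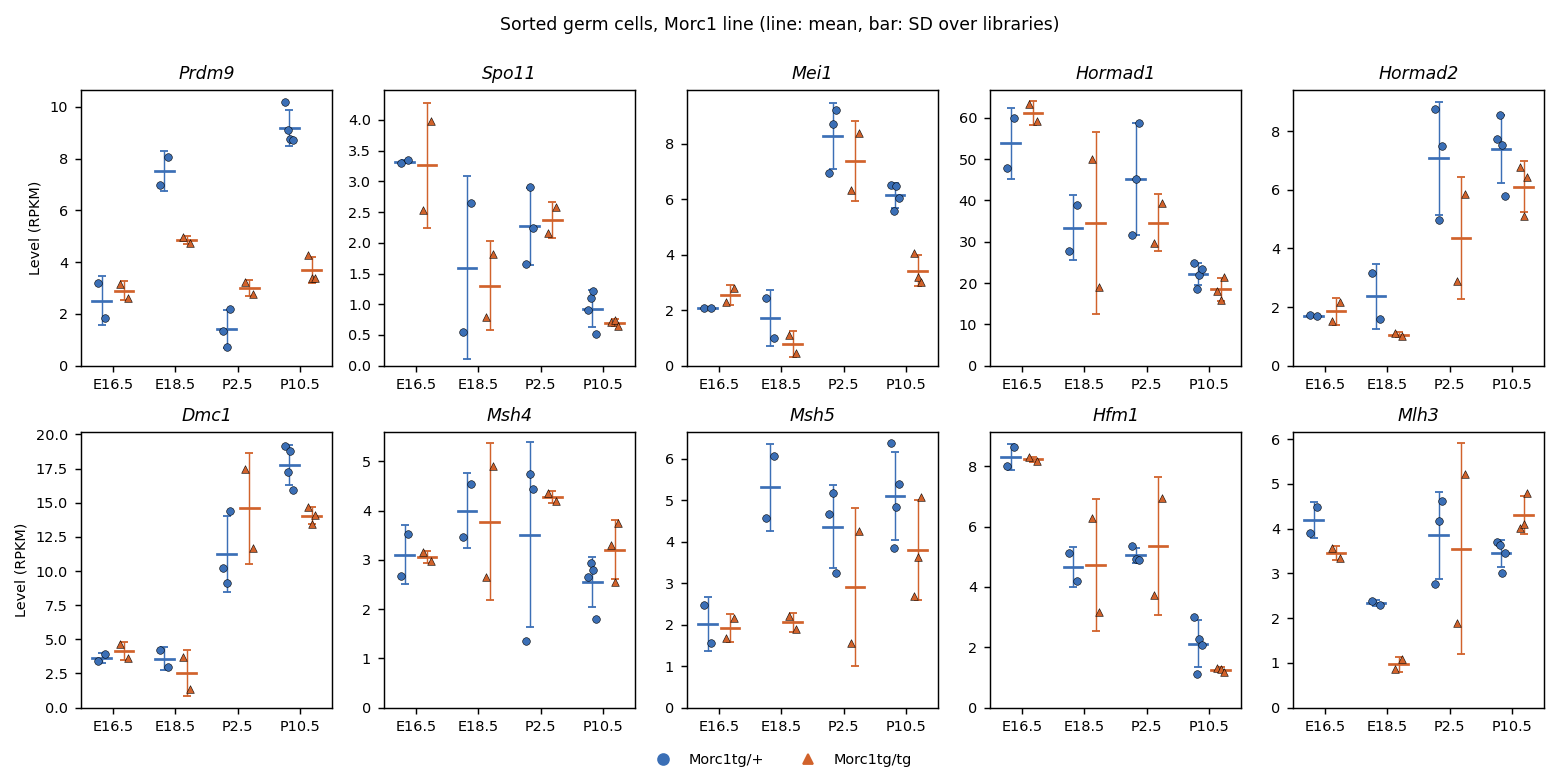
Levels of the 10 genes in RPKM (y axes, from 0) in sorted germ cells of Morc1tg/+ (circles) and Morc1tg/tg (triangles) by stage, 1 point per library, with the mean as a line and the SD as a bar. Prdm9 of Morc1tg/+ sits at 0.739 to 2.18 RPKM at P2.5 and at 8.70 to 10.2 RPKM at P10.5, and the Morc1tg/tg libraries of P10.5 lie below all controls for Prdm9 and Mei1.

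At P10.5 the order of levels in Morc1tg/+ germ cells ran from Hormad1 (mean 22.2 RPKM) through Dmc1 (17.8), Prdm9 (9.19), Hormad2 (7.40), Mei1 (6.14), Msh5 (5.12), Mlh3 (3.45), Msh4 (2.54) and Hfm1 (2.12) to Spo11 (0.93). The ranges over the 4 libraries overlapped between Hormad1 and Dmc1, between Hormad2 and Mei1, between Mei1 and Msh5, between Msh4 and Hfm1, and between Hfm1 and Spo11. They did not overlap between the other neighbours in this order. In whole testis of Morc1tg/+ at P14.5 Hormad1 (mean 112.6 RPKM, SD 22.8, n = 3) and Dmc1 (40.1 RPKM) again led and Spo11 (5.87 RPKM) was again last, next to Mlh3 (6.78 RPKM).

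Loss of Morc1 left no member called before P10.5. In germ cells at E16.5, E18.5 and P2.5, edgeR called 0 of the 10 genes, with 0 at an unadjusted p under 0.05 and 0 by DESeq2, at each stage. Of all genes 0.421%, 0.0416% and 0.0486% were called at these stages. The groups were small. Msh5 had the most negative estimate at E18.5, with 4.57 and 6.06 RPKM in Morc1tg/+ and 2.22 and 1.89 RPKM in Morc1tg/tg, a log2 fold change of -1.28 with a 95% interval from -2.62 to 0.05 (unadjusted p = 0.058, adjusted p = 0.809). Mlh3 at E18.5 had 2.39 and 2.30 RPKM in Morc1tg/+ and 0.851 and 1.09 RPKM in Morc1tg/tg, a log2 fold change of -1.13 with a 95% interval from -2.60 to 0.34. Prdm9 at P2.5 had 1.35, 0.739 and 2.18 RPKM in Morc1tg/+ and 3.22 and 2.78 RPKM in Morc1tg/tg. Its estimate was positive and the largest of that stage, a log2 fold change of 1.07 with a 95% interval from -0.25 to 2.39. For Hormad1 at E16.5 the interval was narrower, from -0.12 to 0.34.

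In germ cells sorted at P10.5, Prdm9, Mei1, Hfm1 and Dmc1 were lower in Morc1tg/tg, 4 of the 10 genes, where 5.79% of all genes were called lower. Prdm9 had 4.27, 3.40 and 3.40 RPKM in Morc1tg/tg against 8.70 to 10.2 RPKM in Morc1tg/+, and it fell by 1.39 (standard error 0.129, adjusted p = 1.89e-08). The highest mutant library lay well below the lowest control. Mei1 had 4.07, 3.18 and 3.01 RPKM against 5.55 to 6.49 RPKM, and fell by 0.92 (standard error 0.135, adjusted p = 4.12e-05). Dmc1 had 14.7, 13.4 and 14.1 RPKM against 15.9 to 19.12 RPKM, and fell by 0.41 (standard error 0.105, adjusted p = 0.00913). For Mei1 and Dmc1, too, the groups did not overlap. Hfm1 had 1.33, 1.26 and 1.17 RPKM against 3.01, 1.11, 2.28 and 2.09 RPKM, and fell by 0.83 (standard error 0.227, adjusted p = 0.0161), with the lowest value in a control. Without Morc1tg/tg replicate 2 the count was 2 (Prdm9 and Mei1), and with all sorted groups in 1 fit it was 1 (Prdm9).
Without Morc1tg/+ replicate 1 the call for Hfm1 was lost (adjusted p = 0.0888).
The remaining members were not called here. Msh5 (log2 fold change -0.50), Spo11 (-0.49), Hormad2 (-0.36) and Hormad1 (-0.34) had negative estimates. Of these, Msh5, Hormad2 and Hormad1 had an unadjusted p under 0.05 (edgeR). With the called genes this made 7 members, beside 3644 of all 14019 genes tested. Msh4 (log2 fold change 0.25) and Mlh3 (0.24) had positive estimates, with 95% intervals from -0.14 to 0.65 and from -0.02 to 0.51. Of the 36 other recombination genes tested 4 were lower and 1 higher. Of the genes of meiotic entry all 3 tested were lower, among them Stra8, which the retinoic acid signal turns on before meiosis (-1.08, adjusted p = 1.4e-08). Of the markers of undifferentiated spermatogonia 6 of 11 were called higher, as were 901 of all 14019 genes tested. The summed level of that list was 227.6 to 277.3 RPKM in Morc1tg/tg against 173.2 to 188.4 RPKM in Morc1tg/+. Sertoli cell markers were lower for 4 of 9, with sums of 69.5 to 135.9 RPKM against 107.8 to 177.0 RPKM. The part of either list in the result was not tested.

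In whole testis of the same age 9 members were lower in Morc1tg/tg than in the 3 controls, where 9.26% of all genes were called lower. The median over the members was a log2 fold change of -1.02, and over all genes tested it was 0.01. Prdm9 fell most, by 1.67 (standard error 0.0966, adjusted p = 4.76e-06), from 4.27, 3.96 and 4.56 RPKM to 1.32, 1.22 and 1.42 RPKM. Dmc1 fell by 1.53 (standard error 0.0979, adjusted p = 7.48e-06), from 10.4, 8.81 and 8.89 RPKM to 3.54, 2.96 and 3.17 RPKM. The control libraries, of both genotypes, lay close together, and all mutants were below all of them.
Mei1, needed for breaks, fell by 1.40 and Spo11, which makes them, by 0.81. Spo11 had 0.408, 0.38 and 0.408 RPKM in mutants and 0.742, 0.684 and 0.698 RPKM in controls. In the preliminary libraries, outside this comparison, it had 0.41 (Morc1+/+) and 0.593 RPKM (Morc1tg/+), the former at the level of the mutants. Of the axis proteins, Hormad1 fell by 1.04 and Hormad2 (ENSMUSG00000020419, chromosome 11, 4245817 to 4341108) by 1.00. Among the crossover genes, Hfm1 fell by 1.33, Msh5 (ENSMUSG00000007035, chromosome 17, 35165550 to 35183690) by 0.89 and Msh4 (ENSMUSG00000005493, chromosome 3, 153520111 to 153569102) by 0.83. Mlh3 (ENSMUSG00000021245, chromosome 12, 86575479 to 86611541), the nuclease subunit, had 5.60, 5.195 and 5.22 RPKM in mutants and 5.39, 6.10 and 5.44 RPKM in controls. Its log2 fold change was -0.07, with a 95% interval from -0.22 to 0.09. Alone among the members, Mlh3 had a higher mean in these testis controls (5.65 RPKM) than in Morc1tg/+ germ cells of P10.5 (3.45 RPKM). Kit and sort differ between the 2 groups, and the part of somatic cells in its testis level was not tested. The count of 9 held without any 1 of the 6 libraries. With the preliminary libraries added and batch as a term it was 9 too. Both of these are controls, so the batch term takes up their level and this setting cannot test them as controls. With all testis groups in 1 fit the count was 8, Spo11 having an adjusted p of 0.0622. Between Morc1tg/+ and Morc1+/+ 0 members were called, by edgeR or DESeq2 and at an unadjusted p under 0.05, where 0.0131% of all genes were called.

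The effect of Morc1 loss on 3 members was larger in whole testis than in germ cells, by the test of the difference, where 3.15% of all genes were called lower. For Dmc1 the difference of log2 fold changes was -1.09 (standard error 0.142, adjusted p = 0.000183). For Msh4 it was -1.05 (standard error 0.28, adjusted p = 0.0303), and for Hormad1 -0.68 (standard error 0.166, adjusted p = 0.0195). For Prdm9 it was -0.25 (95% interval from -0.59 to 0.09). The count of 3 was 1 without Morc1tg/tg replicate 2 or 3, or Morc1tg/+ replicate 2, of the testis at P10.5. The call for Msh4 was also lost without the Morc1+/+ library, Morc1tg/+ replicate 3 of the testis or Morc1tg/tg replicate 3 of the germ cells, with adjusted p between 0.0576 and 0.0728. The germ cell marker list had 6 of 8 genes lower in Morc1tg/tg testis, with sums of 239.6 to 270.8 RPKM against 347.7 to 354.2 RPKM, and 3 of 8 higher in Morc1tg/tg sorted cells. In the test of the difference 7 of its 8 genes were lower (median -0.57). Its part in the difference was not tested. Kit and sort also differ between whole testis and germ cells and cannot be told apart from tissue, and Morc1+/+ was among the testis controls only.

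At P14.5 all 10 members were lower in Morc1tg/tg testis, where 20.1% of all genes were called lower. The median over the members was -1.73, against 0.01 over all genes. Hfm1 fell most, by 2.88 (standard error 0.158, adjusted p = 4.18e-05), from 12.6, 9.99 and 15.1 RPKM to 1.82, 1.66 and 1.60 RPKM. Spo11 fell by 2.58 (standard error 0.205, adjusted p = 0.000102), from 5.81, 4.41 and 7.38 RPKM to 1.10, 0.932 and 0.883 RPKM. On a linear scale the mutant levels were 0.136 times those of the controls for Hfm1 and 0.167 times for Spo11.
Msh4 fell by 2.29, Hormad1 by 2.19, Hormad2 by 1.80, Dmc1 by 1.67, Msh5 by 1.61 and Mei1 by 1.09. Hormad1 had 26.6, 24.8 and 22.4 RPKM against 110.1, 91.1 and 136.5 RPKM. Prdm9 fell by 0.84 (standard error 0.0823, adjusted p = 0.000208), from 12.7, 12.5 and 14.0 RPKM to 7.59, 7.56 and 6.66 RPKM. Mlh3 fell least, by 0.32 (standard error 0.0805, adjusted p = 0.0153), and its call was lost without Morc1tg/+ replicate 1 (adjusted p = 0.0529) or 3 (adjusted p = 0.0595). Of the 37 other recombination genes 27 were lower and 0 higher. Cntd1, a cyclin-like crossover factor, fell by 4.08 and Meiob, a single-strand binding protein of strand exchange listed as 4930528F23Rik, by 2.65. Morc2b, a relative of Morc1 among the 37 listed genes, had 4.34, 2.76 and 6.35 RPKM in Morc1tg/+ and 0.017, 0 and 0 RPKM in Morc1tg/tg (adjusted p = 6.64e-05). These were 1490 reads against 2, a ratio per read on genes of 713. Its exact 95% interval, from 197 to 5890, covers counting error only. In Morc1tg/+ testis Morc2b rose by 9.7 from P10.5 to P14.5 (edgeR, adjusted p = 2.19e-05), so its level in those controls was also far lower at P10.5. Germ cell markers were lower for 6 of 8 genes, with sums of 339.1 to 377.6 RPKM against 571.9 to 679.5 RPKM, and Sertoli cell markers were higher for 9 of 9, with sums of 4775 to 6087 RPKM against 3670 to 4187 RPKM. The part of these lists in the result was not tested.

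**Figure D2:**
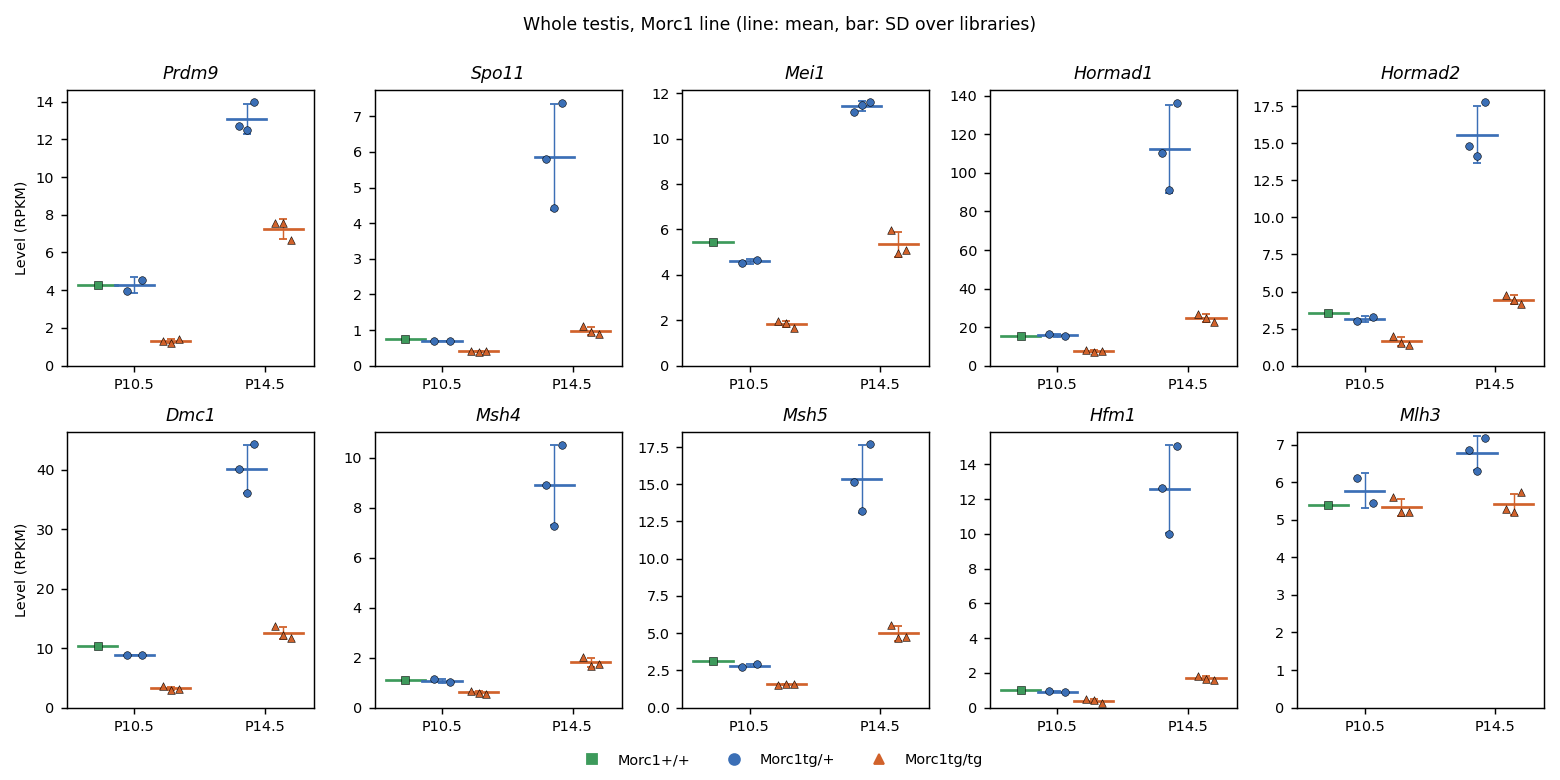
Levels of the 10 genes in RPKM (y axes, from 0) in Morc1 whole testis of either age, 1 point per library, for Morc1+/+ (squares), Morc1tg/+ (circles) and Morc1tg/tg (triangles), with the mean as a line and the SD as a bar. Hfm1 reaches 9.99 to 15.1 RPKM in Morc1tg/+ at P14.5 and 1.60 to 1.82 RPKM in Morc1tg/tg, whereas Mlh3 stays between 5.195 and 7.19 RPKM in all of these libraries.

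Between P10.5 and P14.5 9 members rose in Morc1tg/+ testes, where 25.4% of all genes were called higher. Hfm1 rose by 3.75 on the log2 scale (standard error 0.191), Spo11 by 3.07, Msh4 by 3.04, Hormad1 by 2.81, Msh5 by 2.43, Hormad2 by 2.30, Dmc1 by 2.16, Prdm9 by 1.60 and Mei1 by 1.30, each with an adjusted p between 8.24e-06 and 2.23e-05. Mlh3 was not called (0.21, adjusted p = 0.0757). Morc1tg/tg testes also rose in 9 members, where 19.8% of all genes were called higher, again without Mlh3 (0.02, 95% interval from -0.14 to 0.17). Their rises were 2.18 for Hfm1, 1.28 for Spo11 and 2.45 for Prdm9, the largest.
The effect of Morc1 loss differed with age for 7 of the 10 genes, where 8.22% of all genes were called. It was more negative at P14.5 for Spo11 (difference -1.78), Hfm1 (-1.56), Msh4 (-1.47), Hormad1 (-1.15), Hormad2 (-0.80) and Msh5 (-0.73), and less negative for Prdm9 (0.82, standard error 0.125, adjusted p = 0.00114). With all testis groups in 1 fit the count was 4, and the call for Hormad2 was lost without Morc1tg/tg replicate 1 (adjusted p = 0.0604) or Morc1tg/+ replicate 3 (0.0501) of P10.5. For Dmc1 the difference was -0.15 (95% interval from -0.46 to 0.15). Markers of pachytene spermatocytes, the stage after strand exchange, summed to 200.3 to 378.3 RPKM in Morc1tg/+ at P14.5, to 56.4 to 62.6 RPKM in Morc1tg/tg at P14.5 and to 46.3 to 50.5 RPKM in the controls of P10.5. Of the germ cell markers 4 of 8 had a more negative effect at P14.5 by the same test (median difference -0.50). The part of either list in the results was not tested. These comparisons share the control libraries of each age.

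In Dnmt3l-/- testes at P10.5, 9 members were lower than in the 6 controls of the line, where 29.0% of all genes were called lower. Mei1 fell most, by 2.20 (standard error 0.182, adjusted p = 2.02e-06), to 1.13, 1.06 and 1.65 RPKM from 4.44, 5.99 and 7.67 RPKM (lowest, median and highest control). Hormad2 fell by 1.92 (standard error 0.209, adjusted p = 1.52e-05), to 0.841, 0.81 and 1.07 RPKM from a median of 3.67 RPKM in controls. All 3 mutant libraries were below all controls for both genes.
Prdm9 fell by 1.82, Spo11 by 1.69, Hfm1 by 1.59, Msh4 by 1.49, Dmc1 by 1.41, Hormad1 by 1.40 and Msh5 by 0.94. Mlh3 was not called (-0.24, 95% interval from -0.48 to -0.002, adjusted p = 0.082). Replicate 3 of Dnmt3l+/+ was the lowest control for Dmc1 (6.73 RPKM), Prdm9 (1.57), Spo11 (0.324), Mei1 (4.44), Hormad1 (10.48), Hormad2 (2.39), Msh5 (1.47) and Hfm1 (1.73), and the count was 9 without it. Between Dnmt3l+/- and Dnmt3l+/+ 0 members were called, by edgeR or DESeq2, where 0.00651% of all genes were. At an unadjusted p under 0.05 there was 1 member, beside 287 of all 15370 genes tested. All 8 germ cell markers were lower in Dnmt3l-/-, with sums of 189.2 to 222.0 RPKM against 456.7 to 577.2 RPKM in the controls. Of the 36 other recombination genes tested 30 were lower, among them Mei4, a partner of SPO11 in break formation, by 1.88 and Tex11 by 1.64. The part of germ cell number was not tested.

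By the test of the difference, the effect of Dnmt3l loss was called more negative than that of Morc1 loss for Mei1 and Hormad2. These were 2 of the 10 genes at P10.5, where 9.45% of all genes were called lower. Of the 36 other recombination genes tested 10 were lower in this test too. For Mei1 the log2 fold changes differed by -0.75 (standard error 0.233, adjusted p = 0.0342). For Hormad2 they differed by -0.88 (standard error 0.278, adjusted p = 0.0385). Both calls were lost without Dnmt3l-/- replicate 1 or 2, Dnmt3l+/+ replicate 2, Morc1tg/tg replicate 1 or 2, or Morc1tg/+ replicate 2 or 3, and that of Hormad2 also without Dnmt3l+/- replicate 2 or the Morc1+/+ library. With Dnmt3l+/+ controls alone neither gene was called (adjusted p = 0.0809 for Mei1 and 0.0665 for Hormad2). With the replicate number as a block 0 members were called. In the same test of the difference all 8 germ cell markers were lower (median -0.84) and 6 of 9 Sertoli cell markers higher (median 0.44), and their part in the result was not tested. For Dmc1 (0.17, 95% interval from -0.35 to 0.69) and Prdm9 (-0.10, from -0.83 to 0.64) no difference was called. Control levels of Hfm1 were 0.905 to 0.989 RPKM in the Morc1 line, 1.73 to 4.16 RPKM in the Dnmt3l line and 4.36 and 5.18 RPKM in the libraries labelled Miwi2+/-. The gene lost and the mouse line cannot be told apart in this test, and the control genotypes differ between its arms.

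In the libraries labelled Miwi2-/-, whose Piwil4 level did not settle the genotype, 0 members were called against those labelled Miwi2+/-. This held by edgeR, which called 1.23% of all genes, and by DESeq2. At an unadjusted p under 0.05 there were 2 members, beside 3229 of all 15997 genes tested. With the replicate number as a block 4 members were called (Dmc1, Prdm9, Hormad1 and Hfm1 lower). With 2 libraries a group, whether the numbers mark pairs cannot be decided. Dmc1 had 12.8 and 14.1 RPKM against 15.3 and 16.6 RPKM (log2 fold change -0.26, adjusted p = 0.111), and Hormad1 25.6 and 28.2 RPKM against 30.2 and 30.2 RPKM (-0.19, adjusted p = 0.178). Mei1 had 5.26 and 6.31 RPKM against 4.65 and 5.73 RPKM (0.14, 95% interval from -0.12 to 0.39). The count was 3 without replicate 1 of the libraries labelled Miwi2+/- and 1 without replicate 2 of those labelled Miwi2-/-.

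**Figure D3:**
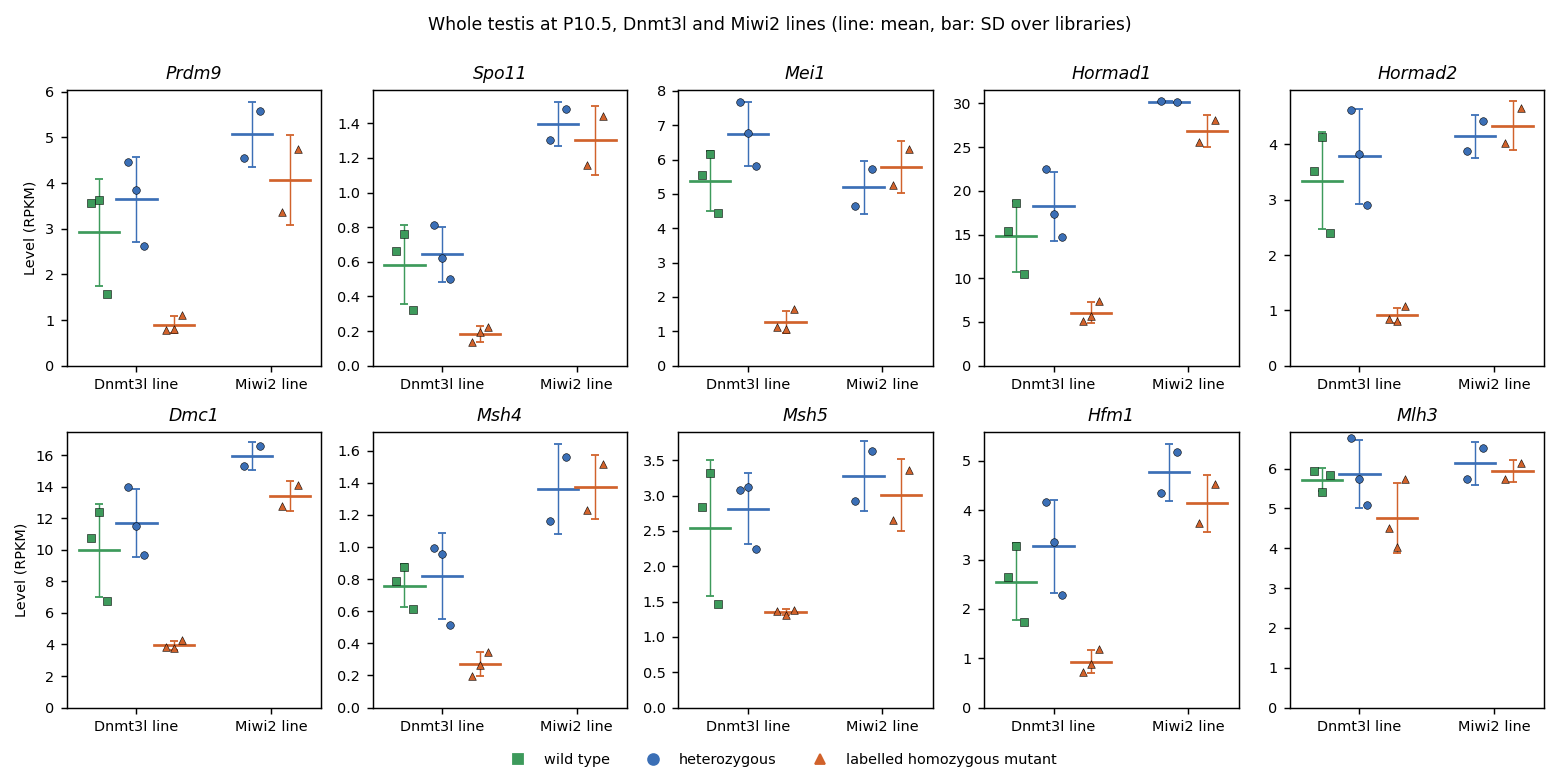
Levels of the 10 genes in RPKM (y axes, from 0) in whole testis at P10.5 of the Dnmt3l line and of the libraries labelled as the Miwi2 line, 1 point per library, with the mean as a line and the SD as a bar (squares wild type, circles heterozygous, triangles labelled homozygous mutant). Mei1 lies at 1.06 to 1.65 RPKM in Dnmt3l-/- and at 4.44 to 7.67 RPKM in the controls.

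**Figure D4:**
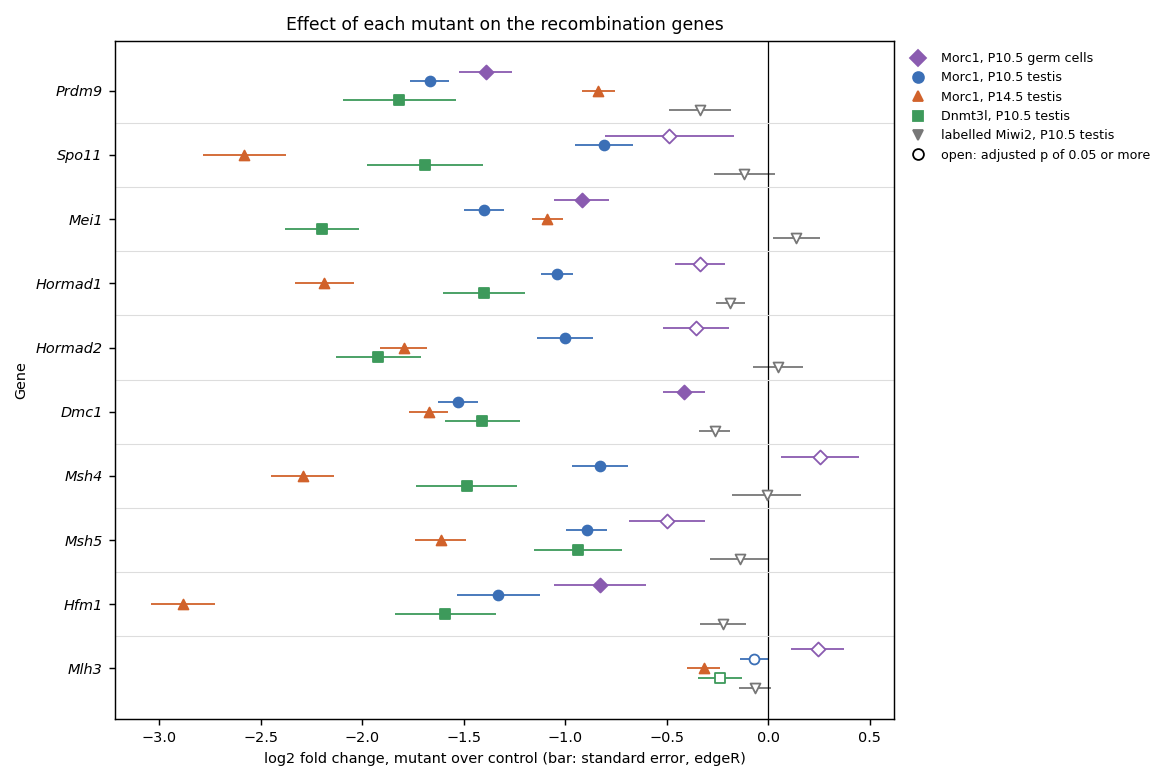
The log2 fold change of mutant over control (x axis) with its standard error for each of the 10 genes (y axis) in 5 comparisons, filled where the adjusted p was under 0.05 and open otherwise. In P14.5 testis Hfm1 is farthest to the left at -2.88, and Mlh3 stays between -0.32 and 0.24 in all 5.

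Compared with other lists, the members lay among the meiotic genes of these testes. In Morc1tg/tg testis at P10.5 all 12 genes of the synaptonemal complex and the meiotic cohesin were lower (median -0.86). So were 21 of 36 other recombination genes (median -0.53) and 4 of 4 differentiating spermatogonia markers (median -0.57), while 0 of 11 undifferentiated spermatogonia markers were called. Of all genes 9.26% were called lower there and 15.3% in either direction. At P14.5 all 12 synaptonemal complex and cohesin genes were again lower (median -1.02), and 6 of 7 pachytene markers (median -2.10), where 20.1% of all genes were called lower. Among the other recombination genes the crossover resolution list had the median nearest 0 at P10.5 (-0.27, 3 of 10 lower), and the break processing and signalling list, whose genes also serve DNA repair in dividing cells, at P14.5 (-0.16, 2 of 7 lower).

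**Figure D5:**
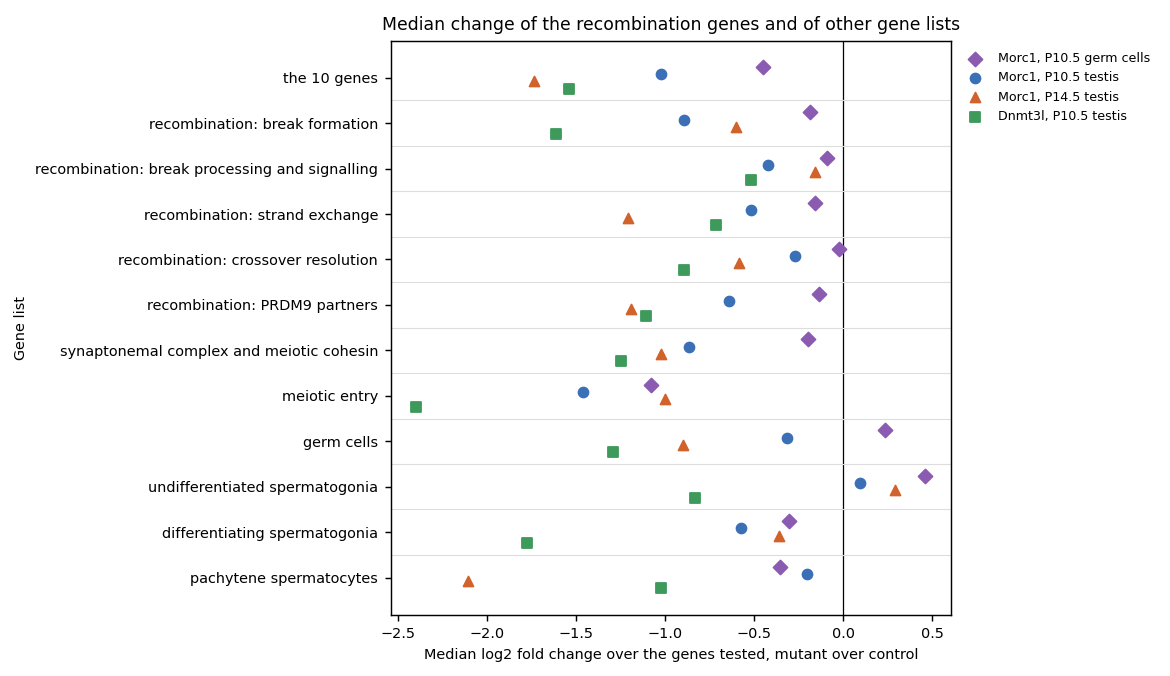
Median log2 fold change of mutant over control (x axis) over the genes tested in each list (y axis) for 4 comparisons. The 10 genes lie at -0.45 in germ cells of P10.5 and at -1.02 (P10.5) and -1.73 (P14.5) in Morc1tg/tg testis, and the undifferentiated spermatogonia markers at 0.46, 0.09 and 0.29.

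Over the 27 whole testis libraries the levels of the members rose and fell together. On the log2(RPKM + 1) scale, Pearson correlations between pairs of the other 9 members ran from 0.758 to 0.982 (median 0.921), and those with Mlh3 from 0.626 to 0.752. These libraries share age, line and cell makeup, and the values are a description. Over the 20 sorted libraries, which share stage and sort, the 45 pairs ran from -0.60 to 0.896 with a median of -0.06. The genes most alike in whole testis, among 12557 with a mean of at least 1 RPKM, were Tex101, a germ cell surface protein (r = 0.99), for Hormad1 and Hormad2 (0.99), Ly6k for Dmc1 (0.99), Nrip3 for Prdm9 (0.98), Stag3, a meiotic cohesin subunit, for Mei1 (0.98), and Tsga10 for Spo11 (0.99) and Msh4 (0.99). For Msh5 it was Dmrtc2 (0.99), for Hfm1 Ube2t (0.97) and for Mlh3 Rsbn1 (0.91).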

How the data were processed

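RNA-Seq was analysed for 47 libraries, grouped by stage, tissue and genotype as the labels give them. The authors deposited gene counts, made with HTSeq on mm9 from reads trimmed to 50 bases and mapped to 1 place with up to 2 mismatches, and RPKM values, which the authors scaled to exon length and mapped reads. HTSeq was run with default parameters and no strand setting is stated. Its default counts reads of 1 strand, which with a kit that does not mark strand, such as that of whole testis, would leave part of the reads uncounted, and whether this was so was not tested. For the gene step no aligner is given in the sources used here. The main test, in R 4.3.3, was edgeR 4.0.16 by quasi-likelihood on the counts (TMM, filterByExpr, Benjamini-Hochberg over all genes tested, threshold 0.05). Standard errors were computed from that test, as the absolute log2 fold change divided by the square root of its F statistic. From these, 95% intervals of log2 fold changes come from the t distribution with the degrees of freedom of that test. Controls of Morc1 testis at P10.5 were Morc1tg/+ and Morc1+/+ together, those of Dnmt3l both control genotypes, and the preliminary libraries entered the comparison of Morc1tg/+ with Morc1+/+ alone, with batch as a term. Differences between effects were interaction terms. Alternatives were DESeq2 1.42.0, RLE factors, no filter, 1 fit over all groups of a tissue, the replicate number as a block, other controls and leaving out each library. The tests were also run on simulated counts with known changes, whose outcome is not given here. No 2 libraries of a group were copies (lowest chi-square per gene 4.52). Precision follows depth, and libraries of 1 animal each are the replicates. The member genes and all lists were chosen with earlier results of these data known. All 10 members are named; other genes by list, with the 2 highest or lowest at most. Coordinates equal those of GENCODE vM1 on the same build, and promoters are RefSeq GRCm38.p6, which is another build. The 4 small RNA files and the other assays were not used here.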

Additional observations from a re-analysis of the deposited data

Results flagged for a closer look

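The results below stood out because the effect of a mutant on a gene differed between ages, lines or tissues by a test of the difference itself (interaction term, edgeR). Each value is a difference of log2 fold changes. Between P14.5 and P10.5 testis, the effect of Morc1 loss differed by -1.78 for Spo11, -1.56 for Hfm1, -1.47 for Msh4, -1.15 for Hormad1, -0.80 for Hormad2, -0.73 for Msh5 and 0.82 for Prdm9, and 4 of 8 germ cell markers were lower in the same test (median -0.50). Between the effect of Dnmt3l loss and that of Morc1 loss in P10.5 testis it differed by -0.75 for Mei1 and -0.88 for Hormad2, and all 8 germ cell markers were lower in the same test (median -0.84). Between whole testis and sorted germ cells at P10.5, the effect of Morc1 loss differed by -1.09 for Dmc1, -1.05 for Msh4 and -0.68 for Hormad1, and 7 of 8 germ cell markers were lower in the same test (median -0.57). The part of these markers was not tested, and the Morc1 testis arms at P10.5 are shared by these tests. In the only group with enough libraries to look for a single far library, the 4 Morc1tg/+ libraries of P10.5 germ cells, none of the 10 genes had one.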

How the results depend on the processing

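The direction of all 70 called changes of single members was kept in 933 alternative estimates, each of 1 change under 1 setting. Of these, 877 also kept the call. Counts of members called moved by over 1.5 times only in 6 of the 18 comparisons, and the cause was not tested. For Morc1 loss in P10.5 germ cells (4 members) the count was 1 with all sorted groups in 1 fit and 2 to 6 with a library left out. For the libraries labelled Miwi2-/- (0) it was 4 with the replicate block (Dmc1, Prdm9, Hormad1 and Hfm1 lower) and 0 to 3 with a library left out. From E16.5 to E18.5 (0) it was 2 with DESeq2, 2 in 1 fit over the sorted groups, 1 with the replicate block and 0 to 7 with a library left out. For the effect of Morc1 loss by age (7) it was 4 in 1 fit over the testis groups. For Dnmt3l against Morc1 (2) it was 0 with the replicate block, 1 with Morc1tg/+ controls alone at P10.5, 0 with Dnmt3l+/+ controls alone and 0 to 3 with a library left out. For testis against germ cells (3) it was 1 to 3 with a library left out. The replicate block left the count for P10.5 testis at 9, for P14.5 at 10 and for Dnmt3l loss at 9. Same-numbered libraries had correlations of deviations from -0.428 to 0.348 over 40 pairs, and of 0.321 in both pairs of the Miwi2 line. In no comparison with 3 or more pairs were all above 0.1, and 2 pairs are too few to decide, so the numbers were not taken as pairs. Rescaling RPKM to TMM effective reads changed libraries by factors from 0.925 to 1.458 and moved 54 of 200 group levels by more than their SD, or, in groups of 1 library, than their counting interval. With 2 libraries in a group the precision is low, and counts of 13 to 74 reads in E18.5 germ cells limit Spo11 there.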

Other observations

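The preliminary whole testis libraries of P10.5, outside the main comparisons with mutants, had summed levels of the 10 genes of 40.8 RPKM in Morc1+/+ and 42.9 RPKM in Morc1tg/+, against 47.5 to 50.3 RPKM in the 3 later controls of the line. Dmc1 had 6.63 and 7.34 RPKM in them and Spo11 0.41 and 0.593 RPKM.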
